A study of Homo sapiens with 12 samples.

Results

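The 10 genes followed here code for intermediate filament proteins and were chosen by name: the neurofilament genes NEFL, NEFM and NEFH, INA (internexin), NES (nestin), VIM (vimentin), the simple epithelial keratins KRT8 and KRT18, and the lamins LMNA and LMNB1. All 10 were found among the 58735 genes counted in 12 RNA-seq libraries. The cells were HEK293T, a line derived from human embryonic kidney and known to make SV40 large T antigen. There were 4 groups of 3 libraries: cells given 500 ng of a plasmid for miR-211, cells given a control plasmid at 500 ng, cells given 1 nM of an siRNA of the Dicer-substrate type that targets the U1 spliceosomal RNA (U1 siRNA), and cells given a scrambled oligo, whose dose the labels do not state. RNA was taken 24 h after transfection with a lipid reagent, and the labels put the U1 inhibition at 30%. The labels put the share of transfected cells at a minimum of 50% by GFP, so each library averages over cells with and without the agent, and they say neither what the WT in the names of both oligo groups stands for nor whether replicates were separate cultures. A p-value here therefore speaks of the spread among these libraries alone, and that spread may be technical. In bulk RNA, fewer cells of a kind and less RNA per cell cannot be told apart.

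Intermediate filaments are built from a large gene family whose members are used by lineage. Keratins are obligate heteropolymers of a type I and a type II protein, and KRT18 (type I) pairs with KRT8 (type II) in simple epithelia such as kidney tubules. Vimentin is the filament of mesenchymal and of most cultured cells, nestin that of neural precursors, and the light, medium and heavy neurofilament proteins assemble with internexin in neurons. Lamins line the inner nuclear membrane: B-type lamins such as LMNB1 are made by nearly all cells, and A-type lamins, spliced from LMNA, rise with differentiation and tissue stiffness. HEK293 cells are known for expressing neurofilament genes although they came from a kidney culture.

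The agent of the first comparison acts through its seed, so its sequence and the places in these transcripts that pair with it are shown first. The mature microRNA hsa-miR-211-5p (RefSeq, GRCh38.p14, chr15:31065095-31065116, minus strand, in the MIR211 gene) has its seed, bases 2 to 8, in capitals:
hsa-miR-211-5p: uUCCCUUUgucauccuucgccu
The reverse complement of the seed, AAAGGGA, was looked for in the longest annotated 3 prime UTR of each gene (GENCODE 29, GRCh38). Of 19141 protein-coding genes with a 3 prime UTR, 17.3% held it. Among the 10 filament genes NES alone held it, at 2 places in the exonic 3 prime UTR of 559 bases, and the other 9 had 0 matches in UTRs of 322 (VIM) to 2353 bases (NEFL). The matches, in capitals, lie on the minus strand at chr1:156669100-156669106 (base 216 of the UTR, followed by an A) and at chr1:156668980-156668986 (base 336):
NES first match: tcccaccctgcAAAGGGAatctcttgcct
NES second match: gaggcttctccAAAGGGAgggtgacatgc
A match is a description of letters and not a measured site.

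Promoter windows of 300 bases, from 250 before to 50 after the annotated start (RefSeq, GRCh38.p14), were on hand for 6 of the 10 genes, INA, NES, VIM, KRT8, LMNA and LMNB1. Those of VIM (chr10:17227991-17228290, plus strand) and NES (chr1:156677358-156677657, minus strand) are printed because these genes had the highest and the lowest mean level per length among the 6. Capitals mark the GC box GGGCGG on either strand.
VIM: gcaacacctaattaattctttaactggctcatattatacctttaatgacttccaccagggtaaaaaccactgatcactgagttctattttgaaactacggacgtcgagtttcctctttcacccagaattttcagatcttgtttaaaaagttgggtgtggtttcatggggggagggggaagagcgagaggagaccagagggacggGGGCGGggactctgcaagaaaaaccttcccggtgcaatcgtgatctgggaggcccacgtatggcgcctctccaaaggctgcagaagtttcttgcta
NES: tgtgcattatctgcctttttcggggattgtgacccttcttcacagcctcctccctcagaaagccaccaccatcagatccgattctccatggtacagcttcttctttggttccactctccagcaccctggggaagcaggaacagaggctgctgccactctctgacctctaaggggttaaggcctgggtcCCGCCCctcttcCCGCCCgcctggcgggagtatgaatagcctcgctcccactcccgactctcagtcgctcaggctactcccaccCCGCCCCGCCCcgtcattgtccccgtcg
NES had 4 GC boxes and VIM 1, and 44.95% of all 35116 such windows held at least 1. Neither window held TATAAA (11.5% of all windows) or CCAAT (34.6%). Base composition differed too: G and C made up 60.3% of the NES window and 48.0% of the VIM window.

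Library totals of gene counts spanned 6070116 to 8459646 (miR-211), 6226067 to 7484566 (control plasmid), 4515728 to 6343000 (U1 siRNA) and 5903205 to 9290686 (scrambled oligo). U1 siRNA replicate 2 stood apart, with 44.5% of its uniquely mapped read pairs outside annotated exons, and the values most affected are given with and without it. As a check of the labels, MIR211 had 1646, 1997 and 1976 counts in miR-211 libraries, against 1, 9 and 1 with the control plasmid. U1 snRNA, summed over 15 gene copies, averaged 16.6 ± 2.51 CPM in U1 siRNA libraries and 18.4 ± 1.65 CPM in scrambled oligo libraries (SD, n = 3 each, 2-sided exact permutation p 0.5, where the smallest possible is 0.1). By replicate it had 18.9, 13.95 and 17.1 CPM with U1 siRNA, against 19.4, 19.3 and 16.5 CPM. Only U1 siRNA replicate 2 lay below the scrambled oligo range, and a mean without that library was not computed. CPM is a count scaled to the total gene count of its library, and levels of different genes are compared as CPM per kb of annotated exon. Of 9 kidney precursor markers, 6 averaged at least 1 CPM, while PAX2, PAX8 and LHX1 had 0.0329 to 0.0424 CPM per kb. None of 5 blood markers reached a mean of 1 CPM. Their sum was 0.473 to 1.65 CPM (miR-211), 0.803 to 1.74 (control plasmid), 0.946 to 3.76 (U1 siRNA) and 0.678 to 1.29 (scrambled oligo), and none of them was at 0 over all libraries. Fibroblast markers (2 of 5 at 1 CPM or more) summed to 3.66 to 6.26 CPM (miR-211), 3.17 to 7.48 (control plasmid), 3.00 to 17.1 (U1 siRNA) and 3.90 to 6.57 (scrambled oligo). Mature tubule markers (1 of 5) summed to 2.96 to 6.75, 3.17 to 9.89, 3.63 to 18.4 and 4.63 to 7.64 CPM in the same order, and melanocyte markers (2 of 5) to 14.1 to 18.3, 11.5 to 16.2, 12.5 to 22.6 and 14.4 to 16.5 CPM. The highest sum of each of these lists was in a U1 siRNA library, while the lowest U1 siRNA sums lay within the range of the other groups or, for fibroblast markers, under it. The part of these markers in the results was not tested.

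Per length, the 10 genes covered a wide range. NEFL was highest at 20.0 ± 2.22 CPM per kb (SD, n = 12 libraries), followed by VIM at 10.3 ± 0.914, LMNB1 at 6.99 ± 0.810, NEFM at 4.74 ± 0.446 and KRT18 at 2.74 ± 0.432. LMNA (0.481 ± 0.141) and KRT8 (0.472 ± 0.103) lay near the median of all 19951 protein-coding genes, 0.483 CPM per kb. NEFH (0.223 ± 0.162), INA (0.0876 ± 0.130) and NES (0.0787 ± 0.0599) were lowest. Over the 12 libraries the ranges of neighbours in this order were separate from NEFL to VIM, from VIM to LMNB1, from NEFM to KRT18 and from KRT18 to LMNA, and overlapped at the other steps. NEFL ranked 2039 from the top of the 19951 protein-coding genes, and 89.8% of them lay below it. NES had 20.7% below it.

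**Figure D1:**
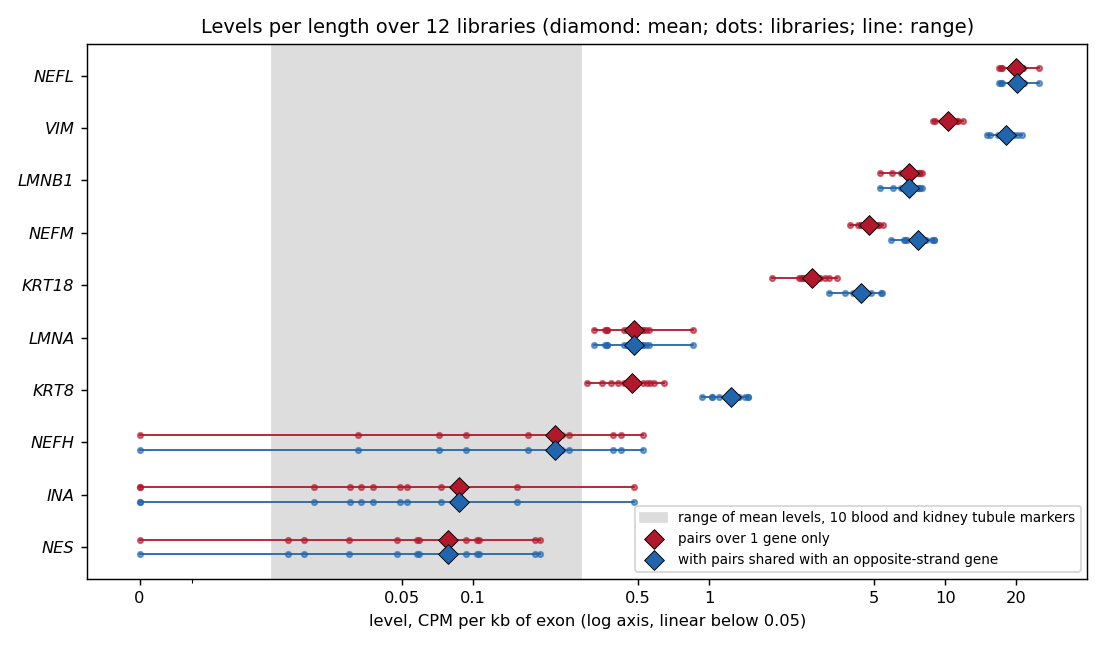
Level of each gene in CPM per kb of annotated exon (horizontal log axis, linear below 0.05), with dots for the 12 libraries, a line for their range and a diamond for their mean. Red counts read pairs over 1 gene only and blue adds pairs shared with a gene on the opposite strand, which lifts VIM to 18.03 and KRT8 to 1.24, while the grey band (0.0253 to 0.287) spans the mean levels of 10 blood and mature kidney tubule markers and holds the means of NEFH, INA and NES, with LRP2 alone setting its upper end.

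The neurofilament genes were split. NEFL, the light chain that starts neurofilament assembly (ENSG00000277586, chromosome 8, 24950955 to 24957110, GRCh38), had 73.1, 87.7 and 88.9 CPM in miR-211 libraries, against 91.6, 83.0 and 86.2 with the control plasmid. It had 108, 74.4 and 91.8 CPM with U1 siRNA, against 85.2, 75.0 and 92.6 with the scrambled oligo. The libraries of all 4 groups overlapped, and U1 siRNA replicates 1 and 2 were among the highest and lowest of the 12. NEFM, the medium chain (ENSG00000104722, its neighbour at 24913012 to 24919098), had 21.3, 21.6 and 23.9 CPM with miR-211, against 22.8, 23.0 and 19.2 with the control plasmid, and 21.1, 17.3 and 20.0 with U1 siRNA, against 19.4, 18.6 and 21.0 with the scrambled oligo. Each pair of groups given here overlapped, with the lowest value in U1 siRNA replicate 2. The lowest miR-211 value (21.25 CPM) lay just above the highest value of the oligo groups (21.13 CPM, U1 siRNA replicate 1). Control plasmid replicate 3, at 19.2 CPM, lay within the range of the oligo libraries. The share of all genes with such an order was not computed. Between the experiments, agents and any batch cannot be told apart. NEFH, the heavy chain of mature axons (ENSG00000100285, chromosome 22, 29480230 to 29491390), had 9, 3 and 7 counts with miR-211, against 6, 6 and 12 with the control plasmid, and 1, 9 and 5 with U1 siRNA, against 2, 0 and 6 with the scrambled oligo. Per length NEFL was 4.23 ± 0.470 times NEFM (SD, n = 12, range 3.48 to 5.16), a ratio that depends on how shared pairs are counted, as given further on.

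INA and NES were close to the counting floor. INA, the internexin of neurons (ENSG00000148798, chromosome 10, 103277163 to 103290351), had 3, 2 and 1 counts with miR-211 and 1, 1 and 2 with the control plasmid. With U1 siRNA it had 0, 7 and 0 counts, and with the scrambled oligo 1, 1 and 1. The 7 counts were in U1 siRNA replicate 2, and without that library the level over the rest was 0.0519 CPM per kb in place of 0.0876. NES, the nestin of neural precursors (ENSG00000132688, chromosome 1, 156668763 to 156677397), had 2, 5 and 4 counts with miR-211, against 0, 4 and 8 with the control plasmid, and 1, 1 and 1 with U1 siRNA, against 2, 6 and 3 with the scrambled oligo. With the 2 seed matches shown above, NES pooled to 0.494 CPM with miR-211 (exact Poisson 95% interval 0.247 to 0.884) and 0.581 CPM with the control plasmid (0.300 to 1.01), intervals that cover counting error only, and a difference was not detectable at this depth. With U1 siRNA it pooled to 0.181 CPM (0.0373 to 0.528), against 0.488 CPM (0.244 to 0.874) with the scrambled oligo. The U1 siRNA libraries lay below the scrambled oligo libraries without overlap, as in 2.86% of the genes that passed the filter, but the intervals overlapped, all 3 U1 siRNA libraries held 1 count and NES did not pass the filter for the test. A floor of 3 counts equals 0.323 to 0.664 CPM, depending on the library. Markers of 2 lineages that a kidney precursor line should lack, 5 of blood and 5 of mature kidney tubule, had 0.0253 to 0.287 CPM per kb with a median of 0.0710, and the means of INA and NES lay above 6 of the 10. NEFH lay above 9 of the 10, all except LRP2, a tubule receptor with 369 counts in all and 4.67 CPM on average, and the next highest marker was CD79A at 0.186 CPM per kb. Without U1 siRNA replicate 2 NEFH had 0.195 CPM per kb in place of 0.223.

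VIM, the mesenchymal filament (ENSG00000026025, chromosome 10, 17228259 to 17237593), had the lowest coefficient of variation of the 10 genes. It had 57.7, 58.3 and 50.2 CPM with miR-211, against 61.4, 56.0 and 54.0 with the control plasmid. It had 51.1, 46.5 and 45.6 CPM with U1 siRNA, against 52.1, 51.3 and 51.0 with the scrambled oligo. The plasmid libraries lay higher than the oligo libraries except miR-211 replicate 3, and this step is tested below. Over the 12 libraries the coefficient of variation was 8.91%, where counting alone gives 5.33%.

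The keratin pair was low and unequal. KRT8 (ENSG00000170421, chromosome 12, 52897187 to 52949954) had 2.64, 2.84 and 3.88 CPM with miR-211, against 2.41, 4.03 and 3.21 with the control plasmid, and 3.63, 4.43 and 2.09 with U1 siRNA, against 3.00, 3.05 and 3.77 with the scrambled oligo. These are 12 to 35 counts a library, and their coefficient of variation of 21.8% matched the 21.6% that counting alone gives. KRT18 (ENSG00000111057, chromosome 12, 52948871 to 52952901) had 5.93, 9.93 and 10.3 CPM with miR-211, against 8.83, 8.92 and 7.88 with the control plasmid, and 9.46, 7.75 and 9.23 with U1 siRNA, against 8.04, 8.13 and 11.2 with the scrambled oligo. The lowest KRT18 value, in miR-211 replicate 1, and the highest, in scrambled oligo replicate 3, marked the ends of its range. Although the 2 proteins assemble together, KRT18 RNA per length was 6.03 ± 1.56 times that of KRT8 (SD, n = 12, range 3.74 to 9.44). It was 6.24 ± 1.45 without U1 siRNA replicate 2 (lowest 4.73) and 3.87 ± 0.998 with the longest transcript as length. Both genes have many near-identical processed copies, and pairs that fit several places were counted for none. The 50 annotated KRT8 pseudogenes held 1078 counts, against 267 for KRT8, and the 67 KRT18 pseudogenes 1076, against 735 for KRT18, so both levels are uncertain. Without U1 siRNA replicate 2 the KRT8 pseudogenes held 840 counts, against 247 for KRT8, and the KRT18 pseudogenes 862, against 700 for KRT18. U1 siRNA replicate 2 had 52.7 CPM over KRT8 pseudogenes and 47.4 over KRT18 pseudogenes, against 6.91 to 19.5 and 6.55 to 17.2 in the other 11 libraries.

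The lamins were split toward the B type. LMNB1 (ENSG00000113368, chromosome 5, 126776623 to 126837020) had 25.0, 26.0 and 28.1 CPM with miR-211, against 27.8, 24.6 and 21.6 with the control plasmid, and 23.5, 27.0 and 24.6 with U1 siRNA, against 28.3, 28.97 and 19.2 with the scrambled oligo. LMNA (ENSG00000160789, chromosome 1, 156082573 to 156140089) had 3.62, 3.66 and 2.59 CPM with miR-211, against 3.21, 2.59 and 2.54 with the control plasmid, and 3.78, 5.98 and 2.26 with U1 siRNA, against 3.13, 3.05 and 3.87 with the scrambled oligo. The highest LMNA value was that of U1 siRNA replicate 2, and the lowest that of replicate 3 of the same group. Per length LMNB1 was 15.5 ± 4.06 times LMNA (SD, n = 12), from 8.69 in U1 siRNA replicate 2 to 20.9 in miR-211 replicate 3. The ratio was 16.1 ± 3.63 without U1 siRNA replicate 2 (lowest 9.51) and 7.39 ± 1.94 with the longest transcript as length in place of all exons. The mean level of LMNA per length was close to that of KRT8.

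**Figure D2:**
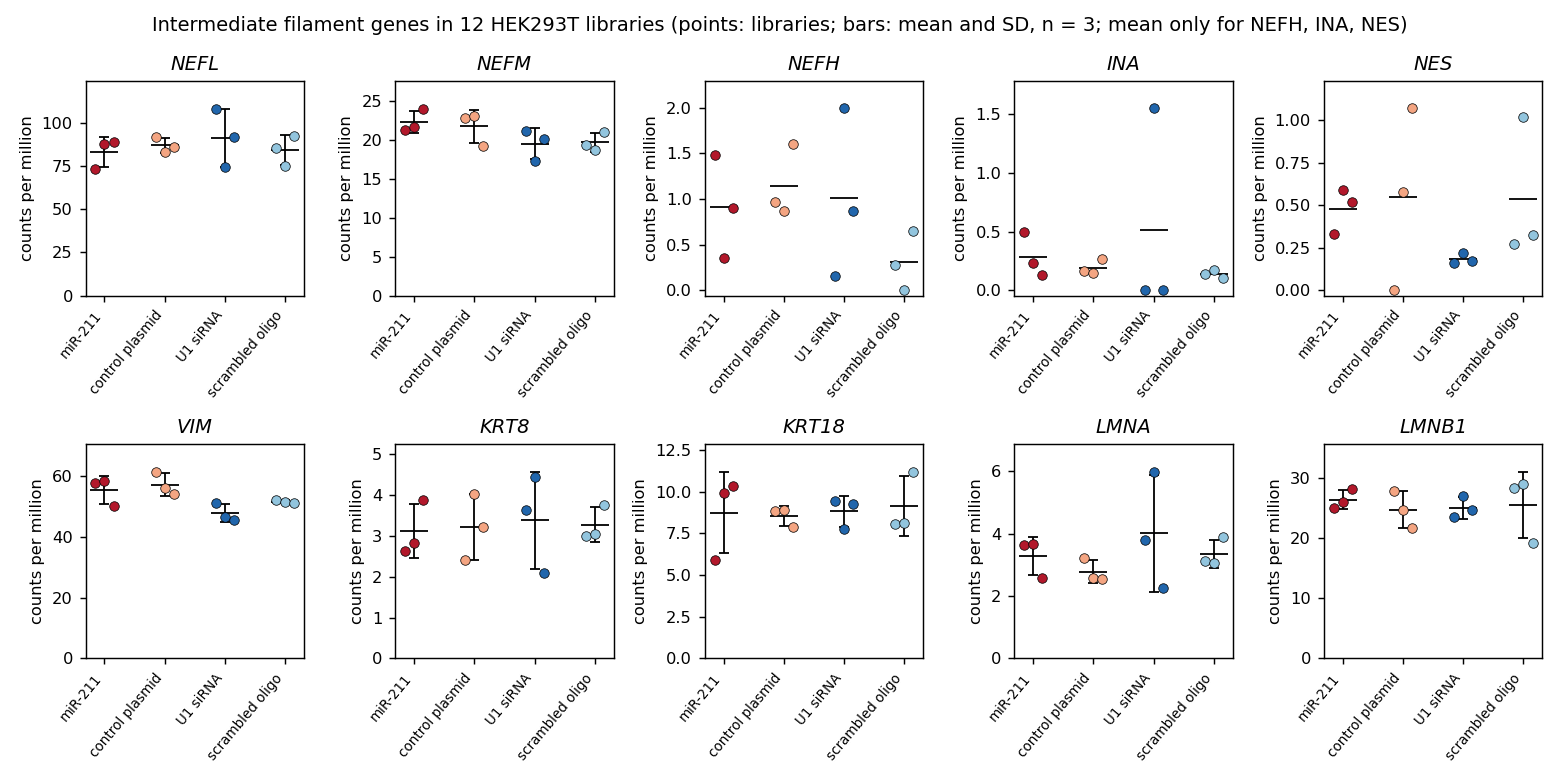
CPM (vertical axes) of the 10 genes in 3 libraries per group, with points for libraries and bars for mean and SD, or the mean alone for NEFH, INA and NES. In the 3 comparisons of 2 groups tested, the groups overlap for NEFL, NEFM, KRT8, KRT18, LMNA and LMNB1, and for VIM the control plasmid libraries (54.0 to 61.4 CPM) lie above the scrambled oligo libraries (51.0 to 52.1 CPM).

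Transcript composition differed among the genes. G and C made up 48.2% of the longest coding transcript of NEFL and 47.7% for LMNB1, 54.0% for NEFM, 54.1% for VIM, 53.4% for KRT8, 50.8% for INA, 57.0% for KRT18, 57.8% for NEFH, 59.3% for NES and 61.5% for LMNA. Over all protein-coding genes the median level was 2.31 CPM per kb in the fifth with the least G and C and 0.152 in the fifth with the most, which holds NES and LMNA. The share of genes at 1 CPM per kb or more was 60.4% and 18.7% in these bins. The part of base composition in the levels of these genes was not tested.

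A large share of the pairs over 4 of the genes was not in the counts. The deposited unstranded counts leave out any pair that lies over exons of 2 genes, and adding the 2 strand columns recovers those shared with a gene on the opposite strand. For VIM, 3336 of 7697 pairs (43.3%) were shared with genes on the opposite strand, whose annotated exons over VIM belong to AL133415.1 and VIM-AS1. For NEFM, 1085 of 2802 pairs (38.7%) were shared with AF106564.1, whose exons cover 38.9% of the NEFM exon length. KRT8 and KRT18 meet head to head on chromosome 12 and share 525 exon bases, 7.63% of KRT8 and 16.3% of KRT18. Exons of both genes lay under 441 pairs, which is 62.3% of all KRT8 pairs and 37.5% of all KRT18 pairs. The other genes lost 30 pairs (NEFL), 2 (LMNB1) or 0. Among 11302 protein-coding genes with at least 100 pairs the median loss was 0.0382%, and 94.1% of them lost a smaller share than VIM and 97.2% a smaller share than KRT8.

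**Figure D3:**
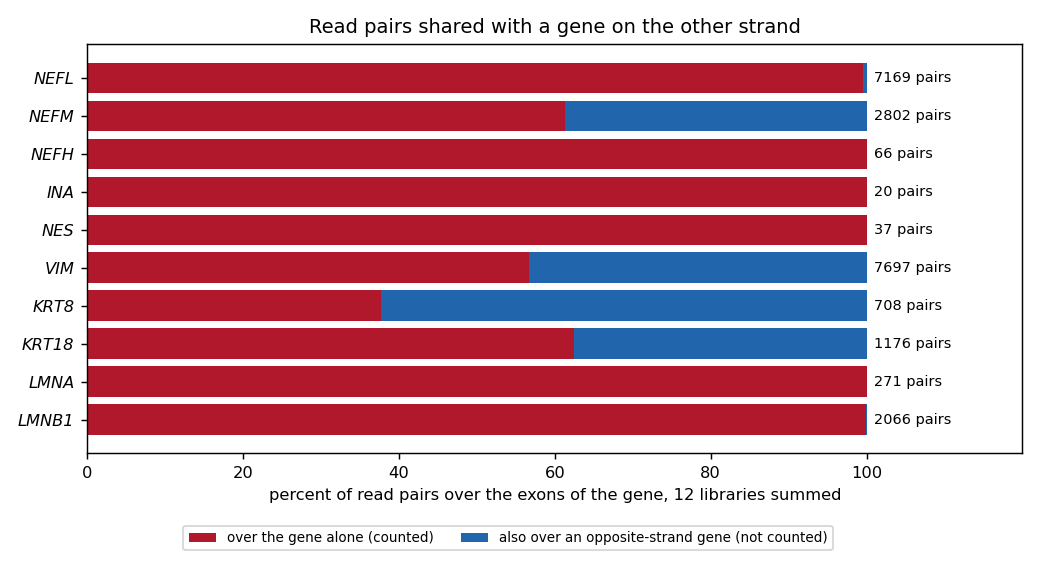
Share of read pairs over the exons of each gene, summed over 12 libraries, that lay over that gene alone (red) or also over a gene on the opposite strand (blue), with the number of pairs at the right. KRT8 has the largest blue part (62.3%), followed by VIM (43.3%), NEFM (38.7%) and KRT18 (37.5%).

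Counting shared pairs moved levels and their order. VIM reached 18.03 ± 1.82 CPM per kb (SD, n = 12), and its range then overlapped that of NEFL at 20.0 ± 2.24. NEFM reached 7.68 ± 0.984 and stood above LMNB1 at 6.995 ± 0.805, with overlapping ranges. KRT18 reached 4.38 ± 0.612 and then overlapped LMNB1, and KRT8, at 1.24 ± 0.178, separated from LMNA. The ratio of NEFL to NEFM became 2.62 ± 0.220, that of NEFL to VIM 1.118 ± 0.136 in place of 1.96 ± 0.288 (1.07 ± 0.158 with the longest transcript as length), and that of KRT18 to KRT8 3.55 ± 0.422. From which of the overlapping genes a shared pair came cannot be told in a count without strand, and AL133415.1 had 0 pairs of its own outside the overlap with VIM or another gene.

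None of the genes passed the test in any comparison. The low-count filter left 7 of the 10, with NEFH, INA and NES removed. With the miR-211 plasmid against the control plasmid, 0 of 7 passed an adjusted p under 0.05 (edgeR quasi-likelihood test), where 0.00788% of 12685 genes did, the 1 gene being MIR211. Unadjusted p ran from 0.295 to 0.956 and adjusted p from 0.996 to 0.997 (edgeR), and DESeq2 called 0 of 7. The log2 fold changes were 0.27 for LMNA (SE 0.27), 0.13 for LMNB1 (0.12), 0.09 for KRT18 (0.20), 0.07 for NEFM (0.12), -0.01 for VIM (0.10), -0.02 for KRT8 (0.29) and -0.03 for NEFL (0.09). Their median was 0.07 and 4 of 7 were above 0, against a median of 0.01 and 51.8% above 0 over all genes tested. None had groups that did not overlap, where 4.67% of genes were higher and 4% lower without overlap.

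With U1 siRNA against the scrambled oligo 0 of 7 passed, and 0% of 12413 genes did (edgeR, with 196 genes at an unadjusted p under 0.05, and DESeq2 with 0 calls and 77). Unadjusted p of the 7 genes ran from 0.251 to 0.965, adjusted p was 0.9999 for each (edgeR). LMNA had a log2 fold change of 0.21 (SE 0.36), NEFL 0.11 (0.13), KRT8 0.02 (0.34), NEFM -0.02 (0.13), LMNB1 -0.03 (0.16), KRT18 -0.06 (0.20) and VIM -0.11 (0.09). The median was -0.02 with 3 of 7 above 0, against 0.02 and 54.7% over all genes tested. Without U1 siRNA replicate 2 LMNA had -0.14 (SE 0.32), KRT8 -0.18 (SE 0.32), NEFM 0.08 (SE 0.14) and KRT18 0.03 (SE 0.20), each opposite in sign to its value with that library. KRT8 also turned negative without U1 siRNA replicate 1 or scrambled oligo replicate 1 or 2, and NEFM and KRT18 turned positive without scrambled oligo replicate 3. NEFL had 0.26 without U1 siRNA replicate 2 (SE 0.11, edgeR unadjusted p 0.0319, adjusted p 0.9997), and 0.11 with it. In 0 of 7 the groups did not overlap, where 3.4% of genes were higher and 2.86% lower without overlap.

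The interval of each difference shows what the main tests, which did not pair libraries by replicate number, could resolve. In both comparisons the 95% interval lay within 1.5-fold in either direction (0.58 on the log2 scale) for 5 of 7 genes: NEFL, NEFM, VIM, KRT18 and LMNB1. It was wider for KRT8 and LMNA, reaching 0.86 for LMNA with miR-211 and 1.00 with U1 siRNA. A p that misses the threshold does not show that levels were equal.

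**Figure D4:**
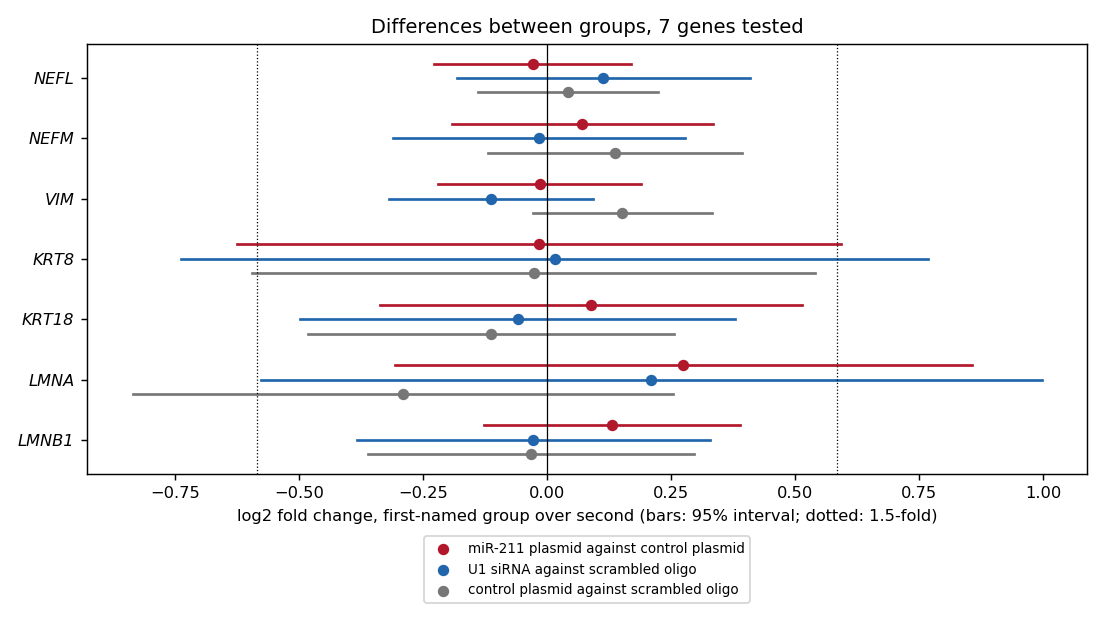
Log2 fold change (dot) and 95% interval (bar) of 7 genes in 3 comparisons, with the first-named group over the second and dotted lines at 1.5-fold. All 21 intervals cross 0, and those of KRT8 and LMNA reach past a dotted line.

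Between the 2 kinds of control, none of the genes passed the test either. VIM averaged 57.1 ± 3.82 CPM in control plasmid libraries and 51.5 ± 0.534 CPM in scrambled oligo libraries (SD, n = 3 each), and its libraries did not overlap, as in 6.64% of the 12650 genes, higher with the control plasmid, and 6.86% lower. With 1 of 7 genes not overlapping, the share was near that of all genes. Its log2 fold change was 0.15 (SE 0.08, edgeR unadjusted p 0.0928, adjusted p 0.713), and 0.20 at most and 0.07 at least over the alternatives tried. The other genes tested had -0.29 (LMNA) to 0.14 (NEFM) with overlapping groups. NEFH did not pass the filter and was not tested, but it was also higher without overlap, as were 6.64% of the genes that passed. It had 0.863 to 1.60 CPM in control plasmid libraries and 0 to 0.646 CPM in scrambled oligo libraries. Pooled, these were 1.16 CPM (exact Poisson 95% interval 0.744 to 1.73) and 0.355 CPM (0.153 to 0.700), intervals that cover counting error only. Of the 7, 0 passed by edgeR (0% of 12650 genes, 986 at an unadjusted p under 0.05). DESeq2 called 40 genes but gave no adjusted p for any of the 7, so it could not call them. What was transfected and any batch between both experiments cannot be told apart. Across all 4 groups in 1 fit, 0 of 7 passed, where 0.0518% of 13520 genes did. With the replicate numbers as a block within each experiment 79 genes passed. That fit compares the 2 experiments at their replicate 1 level, so the 79 calls do not measure differences between group means. In the fit without a block VIM had an unadjusted p of 0.0380 (adjusted p 0.832, edgeR), where 778 of the 13520 genes were under 0.05. The other filament genes tested had 0.232 to 0.999. Without U1 siRNA replicate 2 the unadjusted p of VIM was 0.104 (adjusted p 0.828, edgeR). The miR-211 effect minus the U1 siRNA effect passed for 0 of 7, where 0.0074% of 13520 genes passed (edgeR), with differences from -0.15 for NEFL (SE 0.18) to 0.16 for LMNB1 (SE 0.21).

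Most of the wider filament family was low. Of 38 other intermediate filament genes, 3 averaged at least 1 CPM: KRT10, a type I keratin of differentiated epidermis, at 3.42 ± 0.552 CPM per kb (SD, n = 12, with 66.3% of its pairs shared with an opposite-strand gene), LMNB2, the second B-type lamin, at 1.30 ± 0.244, and BFSP1, a lens filament protein, at 0.377 ± 0.143. LMNB2 was thus above LMNA and below LMNB1. With miR-211 3 of them were tested and 0 passed in either direction (median log2 fold change -0.08), and with U1 siRNA 2 were tested and 0 passed (-0.15).

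Partners of the lamina were mostly higher. All 26 genes of the lamina and of lamin processing averaged at least 1 CPM, from 0.151 CPM per kb, within the range of the blood and tubule markers, to 243, with a median of 7.39, led by BANF1, which tethers chromatin to the envelope (243 ± 9.74), ZMPSTE24, the protease that matures prelamin A (121 ± 7.51), and LBR, the lamin B receptor (93.6 ± 5.76). With miR-211 0 of 26 passed in either direction (median -0.02) and with U1 siRNA 0 of 24 (0.02). Of the filament linkers and junction plaque genes, 26 of 27 listed names were annotated and 22 averaged at least 1 CPM, led by AURKB (93.4 ± 8.54), a mitotic kinase that phosphorylates vimentin. With miR-211 0 of 20 passed (median 0.08) and with U1 siRNA 0 of 21 (0.04).

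Lineage markers from lists named for neurons, epithelia and mesenchyme gave the setting of these levels. At least 1 CPM on average was reached by 11 of 22 neuronal, 4 of 22 epithelial and 14 of 23 mesenchymal markers, with median levels of 0.199, 0.158 and 0.240 CPM per kb. Leading genes were UCHL1, a neuronal ubiquitin hydrolase (46.1 ± 3.92 CPM per kb, SD, n = 12), OCLN, the tight junction protein occludin (3.05 ± 0.309), and SNAI2, a repressor of epithelial genes (25.1 ± 3.52). With miR-211 0 of 9 neuronal, 0 of 2 epithelial and 0 of 13 mesenchymal genes tested passed (medians 0.04, 0.07 and 0.08), and with U1 siRNA 0 of 7, 0 of 3 and 0 of 11 (0.04, 0.11 and 0.06). Neither direction had a call in these lists.

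Likeness of pattern was measured as the root mean square difference of centred log2 CPM over the 12 libraries, among protein-coding genes of at least 10 CPM. Nearest to VIM were SEC63 (0.0477), AMD1 (0.0574) and BCAT1 (0.0597) of 7118 genes. Nearest to KRT8 were ZNF142 (0.123), ZDHHC3 (0.172) and ACSL3 (0.182), and nearest to KRT18 were FAU (0.102), USP22 (0.107) and DNPH1 (0.108), of 7119 each. KRT18, the partner of KRT8, averaged 8.80 CPM and was added to the order from KRT8 despite the limit of 10 CPM. It ranked 4099 of 7120 (0.322). The coefficient of variation of KRT8 (21.8%) matched counting noise (21.6%). Its nearest genes and this rank therefore cannot show whether KRT8 and KRT18 vary together.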

How the data were processed

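RNA-seq counts of 12 libraries were used. The deposited values are raw read counts per gene, not normalized by the authors. Per the submitters' processing notes the aligner was STAR 2.7.2a, and the notes name GRCh37 and hg19, but all 58735 gene identifiers are in GENCODE 29, an annotation of GRCh38, and coordinates are from that annotation. The library kit and how RNA was selected are not given in the sources used here. Totals of the strand columns were similar (ratio of column 3 to column 4 of 0.907 to 0.929, and 1.01 in miR-211 replicate 3 alone), so the unstranded column was used. Summary lines stayed out of library sizes and tests.

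Tests used edgeR 4.0.16 under R 4.3.3 on the counts (TMM scaling, filterByExpr, quasi-likelihood test, Benjamini-Hochberg adjusted p under 0.05 over all genes), on 6 libraries for each comparison of 2 groups and on 12 for the 4 groups and the difference of effects. DESeq2 1.42.0 and other scaling, filter and column choices were alternatives. The script was tested on simulated data. The members, lists and naming rule were chosen with earlier results of these data known. The rule named the 10 genes, the highest genes per length of each list, any list gene past the threshold, and the nearest genes by pattern. Exon length is the union of annotated exons.

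Libraries with the same number had deviations from group means that correlated at 0.250, 0.309 and 0.240 for miR-211 and control plasmid, all above 0.1, so those numbers were taken to pair the libraries, as a check of the data, since no label explains the numbers. For U1 siRNA and scrambled oligo they were 0.145, 0.0891 and -0.0510, so those numbers were not. The main tests had no replicate block, so the SEs, p-values and intervals given for miR-211 do not use the pairing. With the block, the SE of VIM with miR-211 was 0.0771 in place of 0.0960. Unadjusted p under 0.05 was then reached by 943 genes in place of 417 (edgeR), and 0 of 7 filament genes passed. Within groups, libraries differed beyond counting noise: chi-square over degrees of freedom was 1.95 to 7.03.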

Additional observations from a re-analysis of the deposited data

How the results depend on the processing

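Of the filament genes, 0 passed in any comparison under any alternative run, without any single library and, for NEFH, INA and NES too, without the low-count filter. In 1 of these runs, DESeq2 on control plasmid against scrambled oligo, the 7 genes tested got no adjusted p and could not be called. Counts over all genes did move. With miR-211 there were 2 calls in place of 1 with no filter, in strand column 3, in strand column 4 and in the sum of the strand columns, an alternative chosen after the data were seen. With U1 siRNA there were 7 with no filter in place of 0. For control plasmid against scrambled oligo, in place of 0, there were 40 with DESeq2, 4 with total counts only, 51 with no filter, 4 and 6 in strand columns 3 and 4, 6 in their sum and 30 with the replicate block, although these numbers did not pair the libraries. Leaving out 1 library gave 0 to 21, the 21 without scrambled oligo replicate 3 and 1 each without control plasmid replicate 1 or 3. For the 4 groups, in place of 7, there were 76 with DESeq2, 57 with no filter, 11 and 15 in strand columns 3 and 4, and 13 in their sum. The replicate block gave 79, but that fit compares the experiments at their replicate 1 level and not their group means. Leaving out 1 library gave 2 to 7, with 2 to 4 without miR-211 replicates 1 or 3, control plasmid replicates 1 or 2, U1 siRNA replicates 1 or 3 or any scrambled oligo replicate. For the miR-211 effect minus the U1 siRNA effect, in place of 1, there were 3 with no filter and 0 with total counts only, in either strand column or in their sum. Leaving out 1 library gave 0 to 1, with 1 without control plasmid replicate 2, U1 siRNA replicate 2 or scrambled oligo replicate 3. The replicate block changed no other call.

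Of the log2 fold changes of single genes, none of which passed, some crossed 0. With miR-211, NEFL had 0.021 in strand column 4, VIM 0.13 in strand column 3 and 0.011 in the summed columns, and KRT8 0.00032, 0.16 and 0.075 in column 3, column 4 and their sum. In miR-211 replicate 3 VIM had 410 pairs in column 3 and 371 in column 4, while column 4 held more VIM pairs in every other library. With U1 siRNA, NEFL had -0.032, KRT18 0.073 and LMNB1 0.0035 in strand column 3, and NEFM 0.015 in strand column 4. KRT8 had -0.070 with no filter, -0.083, -0.015 and -0.044 in column 3, column 4 and their sum, and -0.013 with the replicate block. For control plasmid against scrambled oligo KRT8 had 0.17 in column 3 and 0.0012 in the summed columns, KRT18 0.0046 in column 4 and LMNB1 0.15 in column 3. Leaving out 1 library gave, with miR-211, -0.081 to 0.056 for NEFL, -0.014 to 0.13 for NEFM, -0.068 to 0.056 for VIM, -0.20 to 0.19 for KRT8 and -0.035 to 0.28 for KRT18. With U1 siRNA it gave -0.028 to 0.26 for NEFL, -0.083 to 0.078 for NEFM, -0.18 to 0.25 for KRT8, -0.13 to 0.11 for KRT18, -0.14 to 0.48 for LMNA and -0.22 to 0.080 for LMNB1. For control plasmid against scrambled oligo it gave -0.037 to 0.11 for NEFL, -0.23 to 0.14 for KRT8, -0.19 to 0.072 for KRT18 and -0.23 to 0.083 for LMNB1. The cause was not tested. Of 50 levels recomputed with another length, scaling or column, 18 moved by more than the SD between libraries. With the longest transcript as length VIM had 19.9, KRT18 4.22, KRT8 1.13 and LMNA 1.05 CPM per kb. Without U1 siRNA replicate 2 all 10 levels moved by less than that SD. Ratios between genes per length were also recomputed, a choice made after the data were seen. Depth limits NEFH, INA and NES, with 66, 20 and 37 counts over all libraries.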
